A study of Mus musculus with 2 samples.

Results

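The myogenic regulatory factors Myf5, Myf6, Myod1 and Myog were followed cell by cell in mouse somites dissected from between the limb buds, at E9.5 and at E11.5. These 4 genes were found by symbol among the 27998 genes of the annotation, each under 1 identifier. Embryos of both stages were wild type on the C57BL/6 strain and untreated, and the somites of 3 embryos were pooled into 1 droplet library per stage. Transcripts were counted as unique molecular identifiers (UMIs), tags that let the copies made of each captured molecule by PCR be counted once. With 1 library per stage, stage and library cannot be told apart, no test between stages is possible, and every interval given is a 95% interval for counting error only.

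The factors are basic helix-loop-helix (bHLH) proteins that bind the E-box, CANNTG, as dimers with the E proteins encoded by Tcf3, Tcf4 and Tcf12. Myf5 and Myod1 are known as determination factors that commit somite cells to the muscle lineage, Myog as the factor of terminal differentiation, and Myf6 (also called Mrf4) as a factor with an early phase in the myotome and a later phase in differentiated muscle. Pax3 and Pax7 mark the progenitors of the dermomyotome, and Mef2 proteins act with the bHLH factors on muscle genes.

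Cells with at least 200 and under 6500 genes and under 15% mitochondrial UMIs were kept, which left 9851 of 10121 barcodes at E9.5 and 9595 of 10167 at E11.5. Median depth was alike, at 12462 UMIs and 12479 UMIs per cell. Each library was clustered without the 4 factors among its 1996 features, and clusters were named from marker lists that do not hold them. The dissected tissue held many cells other than muscle: 1553 cells (15.8%) of the E9.5 library lay in 1 muscle progenitor-like cluster, led by Dmrt2, Tcf15 and Pax3, and 1312 cells (13.7%) of the E11.5 library lay in muscle clusters, of which 901 were progenitor-like and 411 myocyte-like. The others included clusters led by genes of sclerotome, neural tube, neurons, lateral plate, endothelium, blood and epithelium. At E11.5, clusters of 1647, 1096 and 981 cells, led by Pax1, Zic1 and Gsc, were among those left unnamed. Statements on named classes leave unnamed clusters out. Scrublet, which scores barcodes that look like a mix of cells, called 6.75% and 4.00% of barcodes, and calls were kept unless stated. In the E9.5 muscle cluster it called 11.6% of cells. The libraries shared 30 barcode sequences.

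On the GRCm38 build, Myf5 and Myf6 lie on the minus strand of chromosome 10, Myf5 at chr10:107482908-107486134 and Myf6 at chr10:107492853-107494737, with 6718 bases between the genes. Myod1 lies on the plus strand at chr7:46376474-46379099 and Myog on the plus strand at chr1:134289989-134292548. Each has 1 annotated transcript of 3 exons, and none overlaps another gene. Coding lengths are 765 bases for Myf5, 726 for Myf6, 954 for Myod1 and 672 for Myog.

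Promoters are shown because the level of Myog is compared with those of E-box factors and Mef2 genes. RefSeq on GRCm38.p6 gave the 250 bases before the start for 2 of the 4 genes, Myf5 at chr10:107486135-107486384 (minus strand) and Myog at chr1:134289754-134290003 (plus strand). Capitals mark matches, on either strand, to CANNTG and to the core that Mef2 proteins recognise, written as TA, 4 bases of A or T, then TA.
Myf5: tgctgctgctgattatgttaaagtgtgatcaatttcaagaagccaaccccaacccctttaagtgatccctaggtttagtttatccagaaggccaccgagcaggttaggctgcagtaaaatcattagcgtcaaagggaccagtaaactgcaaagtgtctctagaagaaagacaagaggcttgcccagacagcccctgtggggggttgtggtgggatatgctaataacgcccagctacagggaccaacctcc
Myog: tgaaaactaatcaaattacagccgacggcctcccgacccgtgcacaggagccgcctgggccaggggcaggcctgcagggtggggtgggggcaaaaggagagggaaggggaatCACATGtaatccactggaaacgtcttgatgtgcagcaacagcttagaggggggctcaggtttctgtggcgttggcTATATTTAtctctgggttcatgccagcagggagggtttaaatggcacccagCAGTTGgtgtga
The Myog window held CACATG beginning 138 bases before the RefSeq start, CAGTTG beginning 12 bases before it and the Mef2 core TATATTTA beginning 63 bases before it. This start lies inside the Myog gene as placed above, and CAGTTG lies within that gene. The motifs do not overlap each other. The Myf5 window held neither motif, which says only that these letters are not in these 250 bases. Among 32851 promoter windows of this length, 66.2% held CANNTG, 12.3% held CACATG, 11.1% held CAGTTG and 8.56% held the Mef2 core. The matches are a description of the sequence and not sites of binding.

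At E9.5 Myf5 was the factor found in most cells, and Myod1 was almost absent. Myf5 had 1090 UMIs in 527 of the 9851 cells (5.35%, 4.91 to 5.81), with up to 24 UMIs in a cell. Myf6 had 129 UMIs in 86 cells (0.873%, 0.699 to 1.08). Myod1 had 14 UMIs in 9 cells (0.0914%, 0.0418 to 0.173), and 6 of them were in 1 cell. Myog had 549 UMIs in 63 cells (0.640%, 0.492 to 0.818), with up to 58 in a cell. Myog thus stood out at E9.5 for few cells with many UMIs each, as 41.3% of its positive cells had a lone UMI against 82.6% for Myf6 and 61.7% for Myf5.

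At E11.5 all 4 factors were found in more cells, and Myod1 in the most. Myf5 had 3005 UMIs in 778 of the 9595 cells (8.11%, 7.57 to 8.67). Myf6 had 607 UMIs in 253 cells (2.64%, 2.33 to 2.98). Myod1 had 8637 UMIs in 987 cells (10.3%, 9.69 to 10.9), and Myog 24771 UMIs in 919 cells (9.58%, 9.0 to 10.2). The intervals of the shares of Myod1 and Myog overlap. Single cells reached 67 Myod1 UMIs and 189 Myog UMIs.

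Levels are given as UMIs per 1000000 UMIs of a class of cells (UPM). Over all kept cells, Myf5 went from 7.81 UPM at E9.5 to 23.2 at E11.5, a log2 ratio of 1.57 (1.47 to 1.67), and Myf6 from 0.924 to 4.68, a log2 ratio of 2.34 (2.06 to 2.63). Myod1 went from 0.10 to 66.6 UPM, a log2 ratio of 9.37 (8.63 to 10.25), and Myog from 3.93 to 191, a log2 ratio of 5.60 (5.48 to 5.73). All 4 factors were thus at least 2-fold higher at E11.5, where 20.6% of the 14344 genes with at least 100 UMIs over both libraries were at least 2-fold higher and 4.72% at least 2-fold lower. These ratios mix the level per cell with the share of muscle cells in each dissection.

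Co-detection differed between the stages. At E9.5, 593 cells (6.02%, 5.56 to 6.51) had at least 1 factor, and 70 of these (11.8%, 9.32 to 14.7) had 2 or more. At E11.5, 1527 cells (15.9%, 15.2 to 16.7) had at least 1 factor and 942 of these (61.7%, 59.2 to 64.1) had 2 or more. By number of factors, 523 E9.5 cells had 1, 49 had 2, 20 had 3 and 1 had all 4, whereas 585 E11.5 cells had 1, 576 had 2, 264 had 3 and 102 had all 4.

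Detection rises with depth, so each cell was also thinned at random to 5000 UMIs, which left out 537 E9.5 cells and 727 E11.5 cells that were shallower. A factor was then found in 243 of 9314 E9.5 cells (2.61%) and in 1094 of 8868 E11.5 cells (12.3%). Of these, 25 E9.5 cells (10.3%, 6.77 to 14.8) and 619 E11.5 cells (56.6%, 53.6 to 59.5) had 2 or more factors. The stages thus remained apart at equal depth, with intervals that do not overlap, while cells with all 4 factors went from 102 to 19 at E11.5 and from 1 to 0 at E9.5, that cell having 4152 UMIs.

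**Figure D1:**
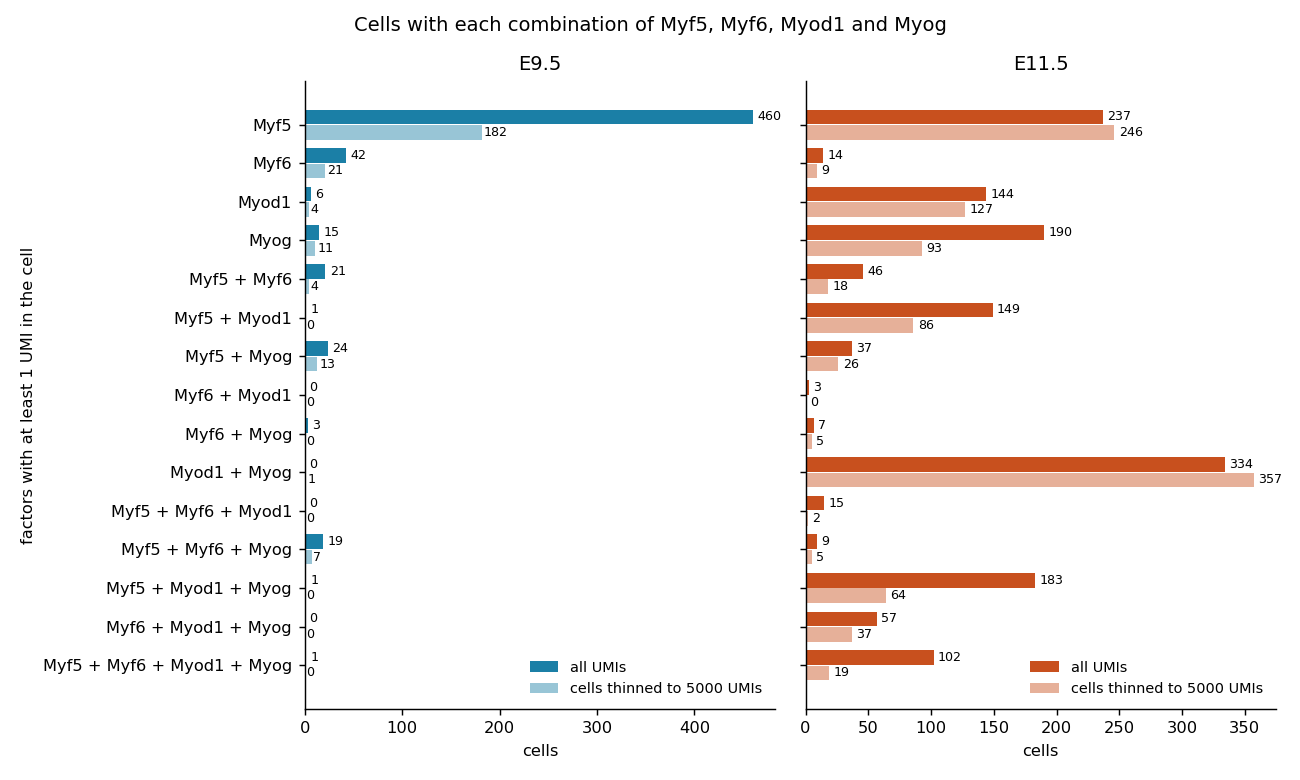
Number of cells (horizontal axis) with each of the 15 combinations of factors (vertical axis) at E9.5 (left) and E11.5 (right), at all UMIs (dark bars) and with each cell thinned to 5000 UMIs (light bars). Myf5 alone led at E9.5 with 460 cells, and at E11.5 the pair of Myod1 and Myog led with 334 cells at all UMIs and 357 thinned.

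The combinations themselves differed in kind. At E9.5, 460 cells had Myf5 alone, 42 Myf6 alone, 15 Myog alone and 6 Myod1 alone. The E9.5 cells with more than 1 factor were 24 with Myf5 and Myog, 21 with Myf5 and Myf6, 19 with Myf5, Myf6 and Myog, and 3 with Myf6 and Myog, besides 3 cells in which Myod1 was among them. Almost all E9.5 cells with Myog thus had it without Myod1.

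At E11.5 the commonest state was Myod1 with Myog and neither Myf5 nor Myf6, in 334 cells. Next came Myf5 alone in 237 cells, Myog alone in 190, Myf5 with Myod1 and Myog in 183, Myf5 with Myod1 in 149 and Myod1 alone in 144. Myf6 was rarely alone (14 cells) and was found with Myf5 only in 46 cells, with Myod1 and Myog in 57 and with all the others in 102. Of those 102 cells, 78 were in the myocyte-like cluster. Thinning raised the count of cells with Myod1 and Myog alone to 357, because cells lost their Myf5 or Myf6 UMIs and moved into that state.

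Cells with Myog alone lay mostly outside muscle at E11.5. Of these 190 cells only 21.1% lay in muscle clusters, compared with 97.3% of the cells with Myod1 and Myog alone, and 42.6% lay in clusters left unnamed, led by genes such as Pax1, Zic1 or Gsc, which also held 53.7% of the cells with no factor. The 21 of them in the myocyte-like cluster had a median of 1045 UMIs. Cells with Myf5 alone lay in muscle clusters in 82.6% of cases at E9.5 and in 72.6% at E11.5. The place of E11.5 cells with Myog alone depended on the setting. Thinned to 5000 UMIs, 45 of 93 such cells (48.4%) lay in muscle clusters. With detection from 2 UMIs, 50 of 60 (83.3%) did.

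Myod1 was found in most cells with Myog at E11.5 and in few at E9.5. Of 63 E9.5 cells with Myog, 45 (71.4%, 58.7 to 82.1) had Myf5, 23 (36.5%, 24.7 to 49.6) had Myf6 and 2 (3.17%, 0.387 to 11.0) had Myod1, against 7 of 9788 cells without Myog (0.0715%, 0.0288 to 0.147). Of 919 E11.5 cells with Myog, 676 (73.6%, 70.6 to 76.4) had Myod1. Thinned to 5000 UMIs, 1 of 32 E9.5 Myog cells (3.12%, 0.0791 to 16.2) and 477 of 606 E11.5 Myog cells (78.7%, 75.2 to 81.9) had Myod1.

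Within the muscle clusters at 5000 UMIs, Myf5 was found in a larger share of cells with Myog than of cells without it at E9.5, and in a smaller share at E11.5. At E9.5, 19 of 30 cells with Myog (63.3%, 43.9 to 80.1) had Myf5, against 10.8% (9.26 to 12.5) of the 1493 cells without Myog. At E11.5, 112 of 555 cells with Myog (20.2%, 16.9 to 23.8) had Myf5, against 47.5% (43.6 to 51.3) of the 672 cells without it. The intervals do not overlap within either stage, and the order is opposite between the stages. The E11.5 shares pool the progenitor-like and myocyte-like clusters, which differ in both factors, as given below. The 30 E9.5 cells come from 3 pooled embryos, and how they divide among the embryos is not known.

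Over the pooled E11.5 muscle clusters, Myod1 was also found in a smaller share of cells with Myf5 than of cells without it. In these clusters and at the same depth, 39.0% (34.3 to 43.8) of cells with Myf5 had Myod1, against 61.9% (58.5 to 65.3) of cells without Myf5. At that depth Myf5 was in 43.4% of progenitor-like and 14.1% of myocyte-like cells, and Myod1 in 37.8% and 94.5%. All E11.5 shares in this paragraph pool these clusters, and the part of this mix in them was not tested. Myod1 and Myog went together, as 71.7% (68.1 to 75.1) of cells with Myod1 had Myog, against 14.3% (11.5 to 17.5) of those without. Myf6 went with Myog at both stages: 7 of 30 E9.5 cells with Myog (23.3%, 9.93 to 42.3) had Myf6 against 0.871% (0.464 to 1.48) of those without, and 11.9% (9.32 to 14.9) against 3.72% (2.42 to 5.44) at E11.5.

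Among the named cell classes, each factor was highest in muscle, except that for Myod1 at E9.5 the order is not settled, since its level in muscle lies below the limits of some classes with 0 UMIs. In the E9.5 progenitor-like cluster Myf5 stood at 35.8 UPM (33.6 to 38.1), Myf6 at 4.03 (3.31 to 4.86), Myod1 at 0.370 (0.177 to 0.680) and Myog between 18.4 and 21.8. Muscle clusters held 88.8% of all Myf5 UMIs, 84.5% of Myf6 UMIs, 71.4% of Myod1 UMIs (10 of 14) and 98.5% of Myog UMIs at E9.5, and between 95.3% and 99.1% for each factor at E11.5. At least 1 factor was found in 481 of 1553 cells of the E9.5 muscle cluster (28.7% to 33.3%) and in 1226 of 1312 cells of the E11.5 muscle clusters (93.4%, 92.0 to 94.7), and at 5000 UMIs in 13.3% and 79.9%. The E9.5 cluster took in most of 197 newly formed somite-like cells and most of 213 cells of which Scrublet called 85.9%, both described below. In 1210 cells led by Dmrt2 and Pax3 at a finer resolution, Myf5 was in 34.1%, against 28.5% of the 1553 cells.

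At E11.5 the progenitor-like and myocyte-like clusters differed in opposite ways for Myf5 and the other factors. Myf5 stood at 157 UPM (151 to 163) in the progenitor-like cluster and at 42.5 (37.8 to 47.7) in the myocyte-like cluster. Myf6 was at 10.0 UPM and 62.1 UPM, Myod1 at 150.0 and 877, and Myog at 168 and 3165. The Myf6 UMIs per Myf5 UMI went from 0.0638 (0.0541 to 0.0747) in the progenitor-like cluster to 1.46 (1.26 to 1.70) in the myocyte-like cluster, and stood at 0.113 (0.0915 to 0.137) in the E9.5 muscle cluster.

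**Figure D2:**
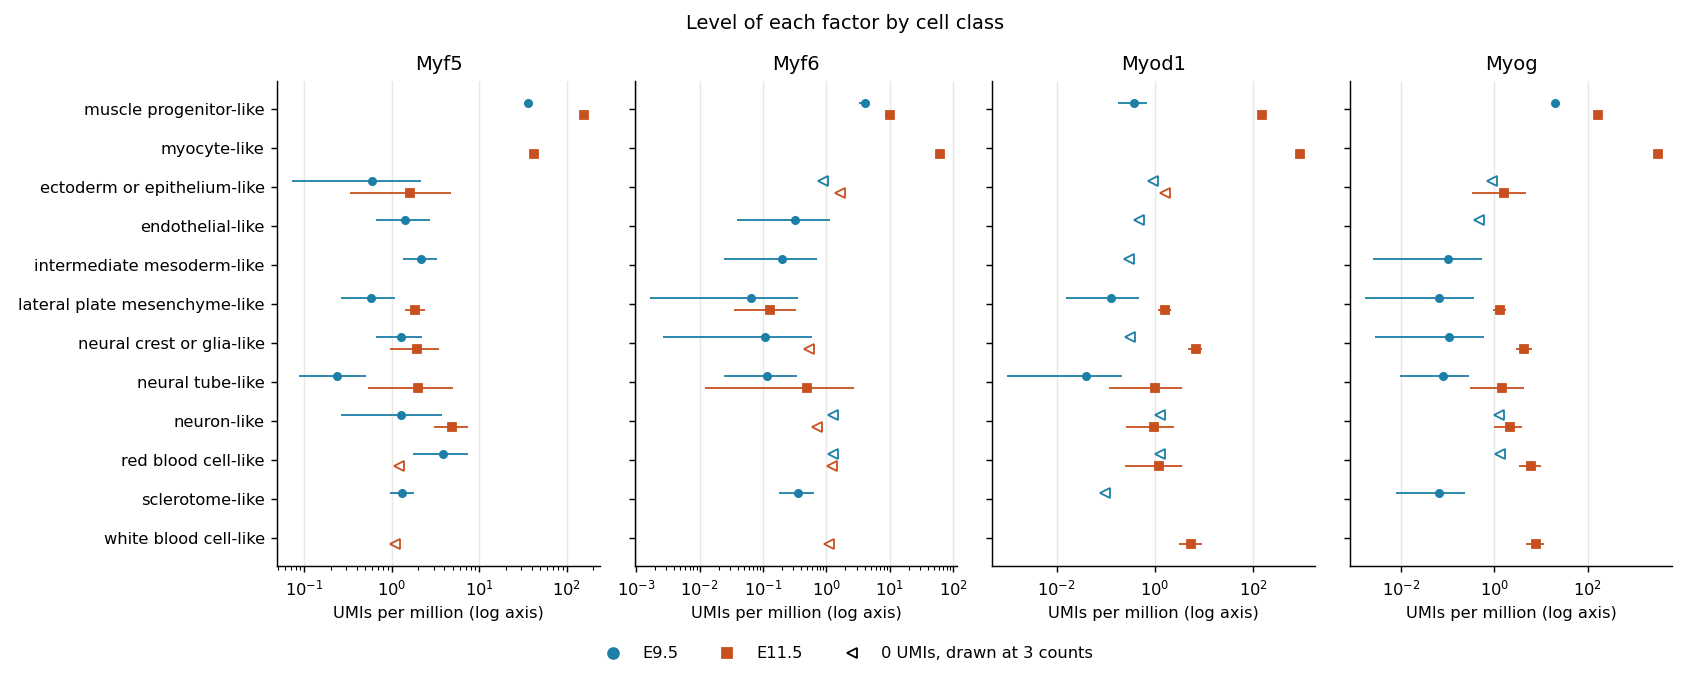
UMIs per 1000000 of each factor (horizontal axis, log scale, a panel per factor) in each named cell class (vertical axis) at E9.5 (circles) and E11.5 (squares), with 95% Poisson intervals and open triangles at 3 counts where a class had 0 UMIs. The muscle classes sit at the right, except for Myod1 at E9.5, which is at 0.370 there and so left of the limits of small classes with 0 UMIs, and Myf5 is the factor that is lower in myocyte-like cells (42.5) than in E11.5 progenitor-like cells (157).

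At the finer resolution of 0.8, clusters that drew 99.1% and 100.0% of their cells from the myocyte-like cluster differed in Myf6. In 223 cells led by Mymx, Cdkn1a and Actc1, a set that holds the fusion gene Mymx and the cell cycle inhibitor Cdkn1a, Myf6 was at 18.8 UPM (14.8 to 23.6). In 190 cells led by the sarcomere genes Acta1, Myl4 and Mylpf, Myf6 was at 121 UPM (108 to 134). Myod1 was at 1090.1 and 589 UPM and Myog at 3961 and 2057 UPM in the same order, so Myf6 was higher in the cells in which Myod1 and Myog were lower. Myf5, at 30.8 (25.6 to 36.8) and 60.9 UPM (52.4 to 70.5), went with Myf6. Thinned to 5000 UMIs, Myf6 was found in 5.96% (3.21 to 9.98) of 218 cells of the former and in 34.4% (26.3 to 43.1) of 131 cells of the latter, the shallower ones left out. Median depth was 15894 and 15827 UMIs. At E9.5 the same resolution gave a cluster of 1210 cells that its leading genes left unnamed. Myf5 was at 44.4 UPM and Myog at 25.7 UPM there. A cluster of 197 newly formed somite-like cells had Myf5 at 2.81 UPM (1.21 to 5.53) and 0 UMIs of the other factors. A cluster of 213 cells, named neural tube-like from its leading genes, had Myf5 at 7.68 UPM (5.43 to 10.5). Scrublet called 85.9% of these 213 cells, and their median depth was 23115 UMIs. They held 38 Myf5 UMIs, whereas the neural tube-like class of the first clustering, of 1865 cells, held 6. Most of the 213 cells lay in the E9.5 muscle cluster of the first clustering, as did most of the 197 newly formed somite-like cells.

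Outside the muscle clusters the factors were low but not at 0. In the 8011 such cells of E9.5, Myf5 stood at 1.06 UPM (0.877 to 1.27), Myf6 at 0.181 (0.111 to 0.280), Myod1 at 0.0272 (0.00561 to 0.0794) and Myog at 0.0634 (0.0255 to 0.131). In the 8120 of E11.5, Myf5 stood at 1.32 UPM (1.11 to 1.56), Myf6 at 0.141 (0.0790 to 0.233), Myod1 at 1.30 (1.09 to 1.53) and Myog at 2.00 (1.74 to 2.28). Between the stages the levels of Myod1 and Myog outside muscle thus differed in the same direction as in muscle, while those of Myf5 and Myf6 had overlapping intervals.

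Red blood cells do not make these factors, so they serve as a background. It can hold free RNA taken up in droplets and barcodes that mix cells. At E9.5 Myf5 was found in 7 of 134 red blood cell-like cells (5.22%, 2.13 to 10.5; median 15312.5 UMIs) and at E11.5 Myog in 6 of 133 (4.51%, 1.67 to 9.56; median 17194 UMIs). The positive barcodes were deeper than their classes, at medians of 34954 UMIs for Myf5 at E9.5 and 24023 for Myog at E11.5. Scrublet called 12.7% of red blood cell-like cells at E9.5 and 9.02% at E11.5. In muscle clusters the shares were 28.5% for Myf5 at E9.5 (median 14828 UMIs) and 57.7% for Myog at E11.5 (median 16424 UMIs). At all UMIs the share in every other named class outside muscle was below that of red blood cell-like cells for these, from 0.268% to 2.20% for Myf5 at E9.5 and from 1.30% to 4.40% for Myog at E11.5. At 5000 UMIs it was not in each: Myf5 at E9.5 was in 0.838% of endothelial-like against 0.775% of red blood cell-like cells, and Myog at E11.5 in 2.24% of white blood cell-like against 1.56% of red blood cell-like cells, with intervals that overlap. By level, Myog stood at 7.69 UPM (4.76 to 11.8) in white blood cell-like and 6.05 UPM (3.38 to 9.97) in red blood cell-like cells. By share, for Myf5 at E9.5 and Myog at E11.5, no named class outside muscle had an interval above that of red blood cell-like cells. At all UMIs, Myf5 intervals at E9.5 lay below it in the sclerotome-, neural tube-, lateral plate mesenchyme- and intermediate mesoderm-like classes. The neural tube-like interval was 0.0871% to 0.625%, so red blood cell-like cells set no floor common to all classes. The parts of free RNA and of mixed barcodes in these shares were not tested. A few barcodes carried many of the UMIs at E11.5. Of 21 Myog UMIs of white blood cell-like cells 15 were in 1 cell, as were 20 of 38 Myod1 UMIs of neural crest or glia-like cells. Those 38 UMIs lay in 7 of 273 cells, at 6.68 UPM (4.73 to 9.17). Red blood cell-like cells had Myod1 at 1.21 UPM (0.249 to 3.53), a lower interval. By share, at 2.56% (1.04 to 5.21) and 0.752% (0.0190 to 4.12), the intervals overlap. At the finer resolution, 146 white blood cell-like cells of E11.5 had Myog at 2.10 UPM and Myod1 at 1.40 UPM. There, 63 endothelial-like cells had Myog at 13.8 UPM and Myod1 at 9.97 UPM. The white blood cell-like class, with the endothelial marker Cdh5 among its leading genes, may thus also hold endothelial cells. At E9.5, 22 Myf5 UMIs of intermediate mesoderm-like cells were in 7 cells, with up to 9 in a cell. At the finer resolution, 193 intermediate mesoderm-like cells led by Lhx1 had Myf5 at 8.46 UPM. A cluster of 576 cells led by Sh3bgr and Osr1 had it at 0. In red blood cell-like cells of E9.5 it stood at 3.88 UPM (1.77 to 7.36).

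Myf5 was also found outside muscle in classes of E11.5 where blood held none. It was found in 10 of 402 neuron-like cells (2.49%, 1.20 to 4.53), with 21 UMIs or 4.92 UPM (3.04 to 7.52) and up to 5 UMIs in a cell. In blood Myf5 was found in 0 of 133 red blood cell-like cells, which allows a share of up to 2.26%, and 0 of 209 white blood cell-like cells, which allows up to 1.44%. The latter class may also hold endothelial cells, as given above. By level, the same limits are 1.21 and 1.10 UPM, and the exact intervals reach 1.49 and 1.35 UPM. These all lie below the interval of the neuron-like cells. In the lateral plate mesenchyme-like cells Myf5 had 58 UMIs in 37 cells, or 1.85 UPM (1.40 to 2.39). That interval overlaps the exact one of red blood cell-like cells, so the order there is not settled. By share, the interval of neither class lies above both limits, although the neuron-like value of 2.49% itself does. At the finer resolution, 685 dermal or dorsal mesenchyme-like cells of E11.5 had Myf5 at 4.78 UPM. Unnamed clusters of 683 and 472 cells, both led by Osr1, had it at 1.63 and 0.434 UPM. The lateral plate mesenchyme-like class, also led by Osr1, may thus mix cells that differ in Myf5, which was not tested. Of the 10 neuron-like cells, 9 had Myf5 as their only factor, and Myf6 had 0 UMIs in the class. The neuron-like cells were shallower than blood, at a median of 8945.5 UMIs. At E9.5 the class held 3 Myf5 UMIs in 2 of 245 cells.

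Cells without muscle genes were those with 0 UMIs over 24 genes of muscle progenitors and differentiated muscle, none of them a factor. There were 4584 such cells at E9.5 (median 10834.5 UMIs) and 3723 at E11.5 (median 10623 UMIs). At E9.5 Myf5 had 45 UMIs in 32 of them (0.698%), or 0.846 UPM (0.617 to 1.13), Myf6 had 10 UMIs in 10 cells (0.188 UPM, 0.0902 to 0.346), Myog 2 UMIs in 2 cells and Myod1 none, which allows up to 0.0654% of cells. At E11.5 Myf5 had 14 UMIs in 14 cells (0.341 UPM, 0.186 to 0.572), Myf6 5 UMIs in 4 cells, Myod1 17 UMIs in 17 cells (0.414 UPM, 0.241 to 0.663) and Myog 59 UMIs in 57 cells (1.44 UPM, 1.09 to 1.85). At E11.5 no factor passed 2 UMIs in such a cell, so nearly all were lone UMIs. The shares of Myf5 at E9.5 and of Myog at E11.5 lie below those of the red blood cell-like cells, which were deeper.

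The E9.5 cells without muscle genes were not all outside muscle. Of them, 113 lay in the E9.5 muscle cluster, and these held 18 of the 45 Myf5 UMIs in 12 cells, or 10.6% (5.61 to 17.8) of them and 12.4 UPM (7.33 to 19.6), with up to 5 UMIs in a cell. Outside the muscle clusters, Myf5 was then at 0.528 UPM (0.348 to 0.768). At E11.5 no cell of the muscle clusters lacked all 24 genes. Some cells of the E9.5 muscle cluster thus had Myf5 and no UMI of the listed muscle genes. The 113 cells had a median of 11745 UMIs.

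**Figure D3:**
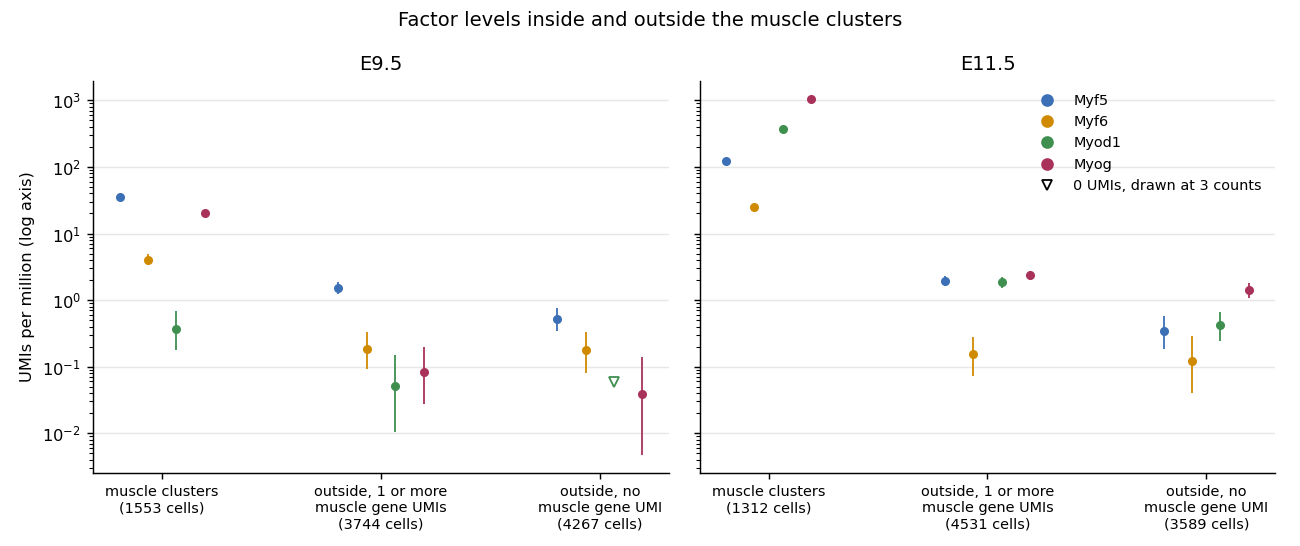
UMIs per 1000000 of each factor (vertical axis, log scale) in muscle clusters, in cells outside them with 1 or more UMIs of the 24 muscle genes, and in cells outside them with none, at E9.5 (left) and E11.5 (right), with 95% Poisson intervals and an open triangle at 3 counts for Myod1 at E9.5. From muscle clusters to cells with none, Myog at E11.5 goes from 1054 to 1.42 and Myf5 at E9.5 from 35.8 to 0.528.

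The factors did not keep the same proportions inside and outside muscle. At E11.5 there were 0.117 Myf5 UMIs per Myog UMI (0.112 to 0.121) in muscle clusters, 0.660 (0.530 to 0.821) in all clusters outside muscle and 0.237 (0.122 to 0.430) in cells without muscle genes. For Myod1 per Myog UMI the values were 0.346 (0.338 to 0.355), 0.651 (0.521 to 0.810) and 0.288 (0.157 to 0.501), so in cells without muscle genes this ratio overlapped that of muscle. In the progenitor-like cluster alone, the ratios to Myog were 0.936 (0.886 to 0.988) for Myf5 and 0.895 (0.847 to 0.945) for Myod1, above those of all cells outside muscle. At E9.5 Myf5 per Myog UMI was 1.79 (1.61 to 1.99) in muscle, 16.7 (7.86 to 42.5) outside it and 22.5 (5.88 to 191) in cells without muscle genes. The part of free RNA in these values was not tested.

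Along the Myog count of a cell, the other factors moved apart at E11.5. In muscle clusters, Myf5 was at 173 UPM (164 to 182) in the 555 cells without a Myog UMI, 183 (163 to 204) in cells with 2 to 3, 80.9 (63.2 to 102) with 4 to 7 and 42.1 (37.1 to 47.7) in the 289 cells with 32 or more. Myod1 was higher in each bin than in the one before, from 66.2 UPM (61.1 to 71.7) without Myog to 955 (931 to 981) at 32 or more. Myf6 stayed between 5.52 and 15.1 UPM up to 7 Myog UMIs, stood at 33.1 (24.3 to 44.2) with 8 to 15, and at 61.5 (50.6 to 74.0) and 49.7 (44.2 to 55.7) in the top bins, whose intervals overlap. Myf5 was thus lower from 4 Myog UMIs on, and Myf6 higher only from 8 on.

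Markers ordered themselves along the same bins. Pax3 went from 137 UPM without Myog to 10.7 at 32 or more, and Pax7 from 70.2 to 12.5. Mymk, which encodes the fusion protein myomaker, went from 9.24 to 372 UPM. Mki67, a proliferation marker, was at 179 UPM without Myog, 202 with 1 UMI and 93.8 at 32 or more, so cells with much Myog still held Mki67 transcripts. Median depth lay between 15089 and 19496.5 UMIs over the bins, and its part in these levels was not tested.

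**Figure D4:**
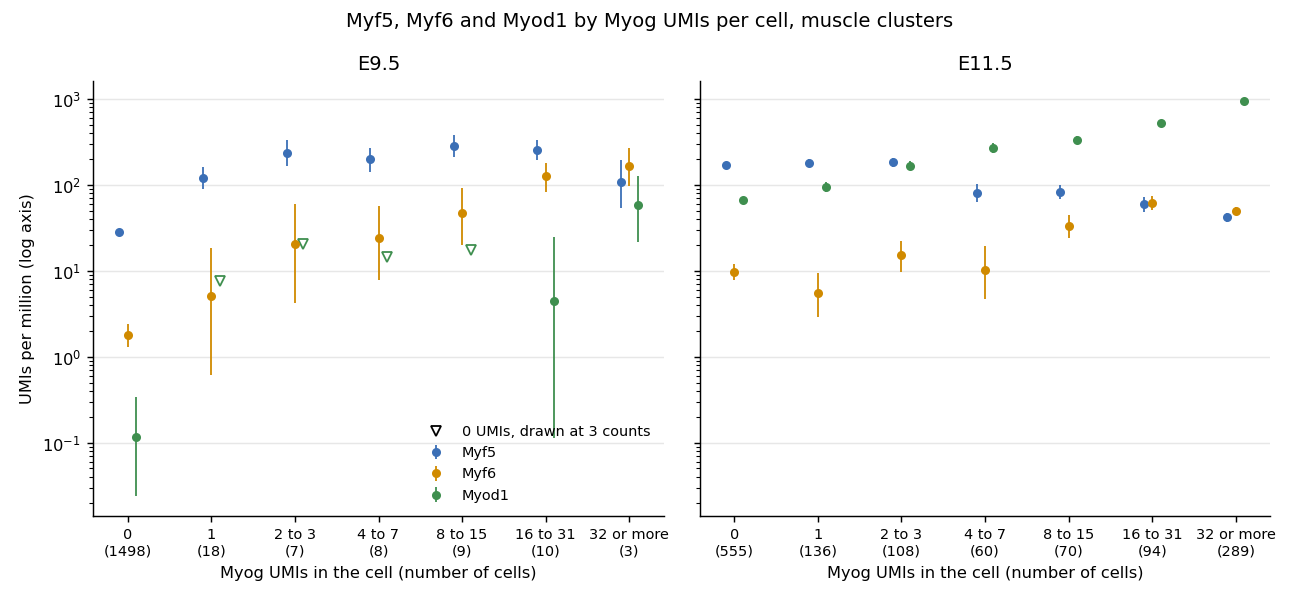
UMIs per 1000000 of Myf5, Myf6 and Myod1 (vertical axis, log scale) in muscle-cluster cells grouped by their Myog UMIs (horizontal axis, number of cells in brackets) at E9.5 (left) and E11.5 (right), with 95% Poisson intervals and open triangles at 3 counts where there were 0 UMIs. At E11.5 Myf5 goes from 173 to 42.1 as Myod1 goes from 66.2 to 955. At E9.5, where bins with Myog hold 3 to 18 cells, Myf5 stands at 28.2 without Myog and between 108 and 285 with it.

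The E9.5 cluster ran differently. Myf5 was at 28.2 UPM (26.2 to 30.3) in its 1498 cells without Myog and between 108 and 285 UPM in every bin with Myog. Myf6 was at 1.78 UPM (1.31 to 2.38) without Myog, 46.6 (20.1 to 91.8) in the 9 cells with 8 to 15 UMIs and 126 (83.6 to 182) in the 10 cells with 16 to 31. Myod1 had 3 UMIs in the 1498 cells without Myog and none in the 42 cells with 1 to 15 Myog UMIs, and 6 in the 3 cells with 32 or more, all in 1 cell. High Myog at E9.5 was thus found with high Myf5 and Myf6 and with little Myod1, as far as 55 cells can show.

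Between the stages, over all kept cells, genes that act upstream of the factors moved in both directions. Of 15 upstream regulators, 2 were at least 2-fold higher at E11.5, among them Pax7 (log2 ratio 2.28), and 3 at least 2-fold lower, namely Pax3 (-1.55), Lbx1 (-1.55) and Meox1 (-1.36), where 20.6% of all genes were higher and 4.72% lower. Of 13 bHLH inhibitors, 4 were at least 2-fold higher, with Msc at 4.43, a repressor that competes for E-boxes, and Mdfi at 2.12, which binds the factors themselves. Of the E proteins Tcf4 passed 2-fold (1.07), and of the Mef2 genes Mef2c (1.90). All 20 sarcomere genes and 13 of 17 genes of early differentiation were at least 2-fold higher, with medians of 5.38 and 3.12 against 0.21 over all genes, and no cell cycle gene of 12 passed 2-fold either way.

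To see what each factor state holds, cells were summed by the factors detected and the lists compared. Genes entered with at least 100 UMIs over both states, a filter that a gene can pass through the state in which it is high, so the counts describe these cells and are no test. Cells with Myog at E11.5 (919) were set against cells with Myf5 or Myod1 and no Myog (594). All 20 sarcomere genes were at least 2-fold higher with Myog, at a median log2 ratio of 6.91, and all 17 early differentiation genes at a median of 3.25, where 5.63% of 10260 genes were 2-fold higher and 0.867% lower, with a median of -0.10.

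The embryonic myosin heavy chain Myh3 stood at 573 UPM with Myog and 0.905 without, a log2 ratio of 9.31 (8.38 to 10.44), while Tnnt1 was the least apart of its list at 1.39 (1.35 to 1.43), with 649 UPM already in cells without Myog. Mef2c was at 434 and 19.2 UPM (log2 ratio 4.50, 4.29 to 4.72), and Mef2a and Mef2d were also over 2-fold higher. The acetylcholine receptor gene Chrna1 (7.89, 6.34 to 10.17) led early differentiation, and the cell cycle inhibitor Cdkn1c (1.02, 1.00 to 1.04) was the least apart.

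Pax3 (-1.57), Eya1 (-1.17), Msc (-1.94) and the Notch target Hey1 (-1.29) were at least 2-fold lower in cells with Myog. No E protein and no cell cycle gene passed 2-fold. Median depth was 16872 UMIs with Myog and 15417 without. Of the cells with Myog, 43.5% lay in the myocyte-like cluster, which is led by sarcomere genes, against 0.505% of the cells without. The part of this in the ratios was not tested.

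Myf6 marked a further division among cells with both Myod1 and Myog at E11.5. The 159 cells that also had Myf6 were compared with the 517 that had none. Myod1 was alike, at 629.5 and 596 UPM, and Myog stood at 2089 and 1773 UPM. All 20 sarcomere genes were at least 2-fold higher with Myf6, at a median log2 ratio of 2.72, where 6.64% of 8543 genes were higher and 4.69% lower. Myh7 (3.87, 3.63 to 4.12) and Acta1 (3.81, 3.76 to 3.87) were the farthest apart and Tnnt1 (1.27, 1.23 to 1.30) the least.

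Early differentiation split, with 7 of 16 genes at least 2-fold higher with Myf6 and 1 lower. Myl4 (3.29, 3.23 to 3.34), Tnnt2 (2.04, 1.97 to 2.11) and Mymk (1.63, 1.52 to 1.74) were higher, and Gadd45g (-1.18, -1.33 to -1.04) lower. Mymx, which encodes the fusion peptide myomixer, was at 277 UPM with Myf6 and 348 without (-0.33, -0.43 to -0.22), so the genes of the fusion pair stood in opposite directions.

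Of 12 cell cycle genes, 8 were at least 2-fold lower with Myf6, led by Cdc6 (-1.63, -2.32 to -1.01). Dmrt2 (-2.40, -3.18 to -1.71), Pax7, Meox1 and Gli2 of the upstream regulators and Msc, Twist1 and Id2 of the inhibitors were lower, and Mef2c higher (2.39, 2.32 to 2.46). Cells with Myf6 were deeper, at a median of 20773 UMIs against 17038, and 81.8% of them lay in the myocyte-like cluster against 47.0%. With states and levels taken at 5000 UMIs, 15 of 18 sarcomere genes were still at least 2-fold higher (median 1.56) and 8 of 10 cell cycle genes lower, with 1 higher, in 56 and 421 cells. Early differentiation then had 4 of 15 genes higher and 1 lower, and the upstream regulators 1 of 3 lower. Of all 3342 genes compared at that depth, 150 were higher and 208 lower.

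Within the myocyte-like cluster alone, 130 cells with Myf6 and 243 without, 17 of 20 sarcomere genes were at least 2-fold higher (median 1.88) and 8 of 11 cell cycle genes lower, while early differentiation had 2 of 16 genes higher and 3 lower. Of all 6512 genes compared there, 392 were higher and 243 lower, with a median of -0.09. Myod1 was then at 694 and 1032 UPM and Myog at 2453 and 3740.3 UPM, lower in the cells with Myf6.

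Myf6 beside Myf5 alone gave no such division in the genes that could be compared, among cells chosen to lack Myod1 and Myog. At E11.5, 46 cells with Myf5 and Myf6 and neither Myod1 nor Myog were set against 237 cells with Myf5 alone. No gene of any list was at least 2-fold higher in cells with Myf6, where 0.0531% of 5646 genes were higher and 1.06% lower, and only Dmrt2 (-1.55, -2.59 to -0.67) and Meox2 (-1.44, -2.61 to -0.45) were lower. Of the 20 sarcomere genes only 5 had enough UMIs, with a median of 0.13, among them Tnnt1 at 0.13 (0.00 to 0.25). Of 17 early differentiation genes 5 had enough, so most genes of these lists cannot show a division here. Myf5 itself was at 303 and 213 UPM. Of the cells with Myf6, Scrublet called 15.2% and of the others 5.49%, at medians of 18744.5 and 14565 UMIs, and the part of these differences was not tested.

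At E9.5, 45 cells with Myf5 and Myog were compared with 482 cells with Myf5 and no Myog. Of 20 sarcomere genes 11 had enough UMIs and all 11 were at least 2-fold higher with Myog, at a median log2 ratio of 6.49, where 1.73% of 7635 genes were higher and 1.70% lower. Acta1 (10.36, 8.81 to 12.65, from 450 and 3 UMIs) was the farthest apart and Tpm2 (2.83, 2.63 to 3.03) the least. Of 8 early differentiation genes 5 were higher, among them Tnnt2 (6.90), Cdkn1c (3.85, 3.77 to 3.92) and Cdkn1a (3.78, 3.54 to 4.02).

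Myf6 was at 52.6 and 2.34 UPM in these E9.5 cells, and Myf5 at 218 and 85.8 UPM. Mef2c stood at 258 and 10.6 UPM (4.61, 4.28 to 4.95). Eya2 was higher (1.21, 0.66 to 1.74) and Dmrt2 lower (-1.01, -1.47 to -0.59), and no cell cycle gene of 12 passed 2-fold. Cells with Myog were deeper, at a median of 26162 UMIs against 17208, and with cells thinned to 5000 UMIs only 2 sarcomere genes had enough UMIs, both at least 2-fold higher.

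**Figure D5:**
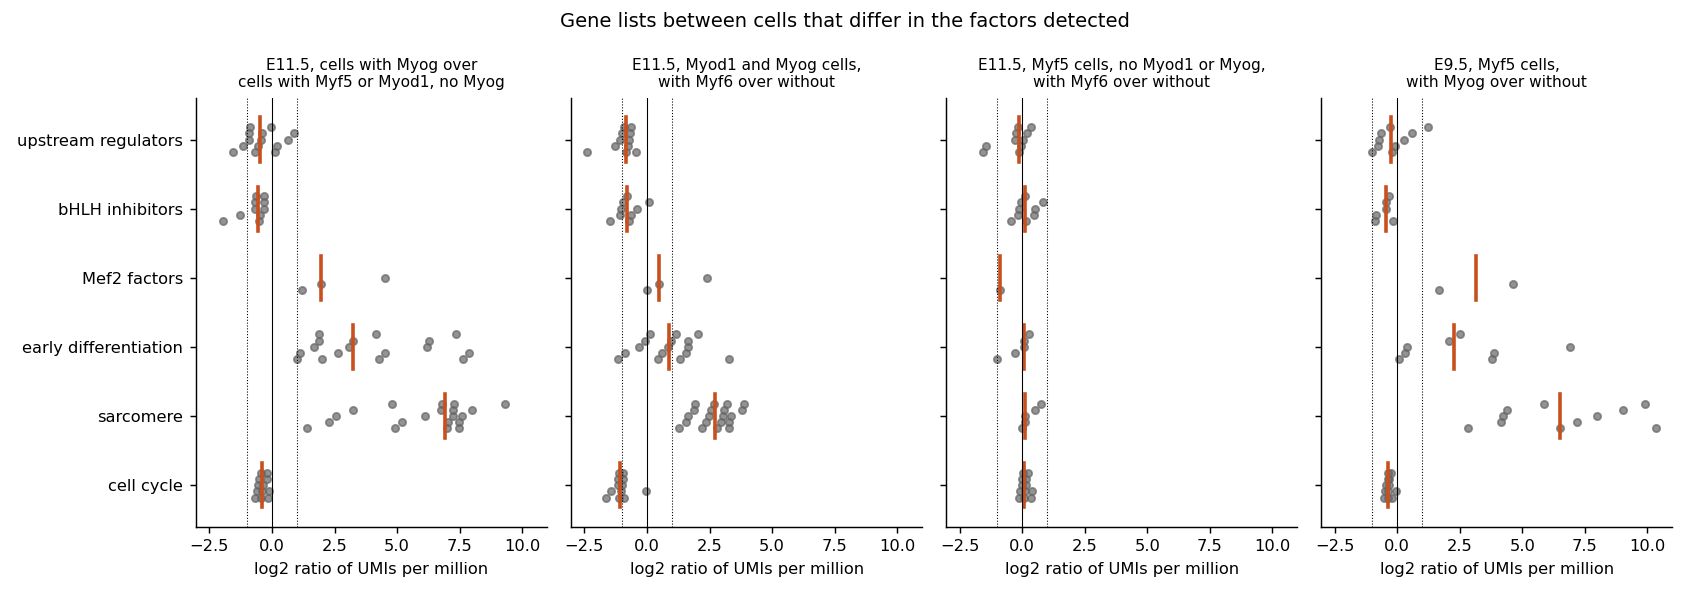
Log2 ratio of UMIs per 1000000 (horizontal axis) for each listed gene with at least 100 UMIs (points) and the median of each list (bars) in 4 comparisons of cells that differ in the factors detected (panels), with dotted lines at 2-fold. Sarcomere genes are right of 2-fold in the Myog panels and in the panel of Myod1 and Myog cells with and without Myf6, where cell cycle genes centre at -1.08, and near 0 in the panel of Myf5 cells with and without Myf6.

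Across the 15 E11.5 clusters, the genes whose level most resembled each factor were taken by Pearson's r of log2(UPM + 1), as a description over clusters that share a library and of which only the muscle clusters are high. Myf5 was closest to Pitx3 (r = 0.94), Msc (0.938), Fgf9 (0.931), Fgfr4 (0.930) and Ano5 (0.923). Myf6 was closest to Musk (0.991), a kinase of the neuromuscular junction, Cacng1 (0.991), a calcium channel subunit, Myh8 (0.985), Mylk4 (0.980) and 1110002E22Rik (0.980). Myod1 was closest to Vgll2 (0.985), Myog (0.958), Gm28653, Sgca and Saa3, and Myog to Chrng (0.969), Vgll2 (0.968), Myod1, Actc1 and Atp2a1.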

How the data were processed

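Single-cell RNA was measured in 1 pooled library per stage. The authors deposited raw UMI counts per gene and barcode, made with Cell Ranger 3.0.1 on mm10 per the submitters' processing notes and not yet filtered by genes per cell. The filters on cells that the study states were applied. Both libraries were clustered alone in Seurat 5.3.0 under R 4.3.3, with 18 dimensions at resolution 0.4, cell cycle scores regressed out and the 4 factors left out of the features. A cluster was named from fixed markers among its 10 leading genes. Scrublet ran in scanpy 1.11.5 with an expected rate of 0.08 for both libraries, and its calls were left out only as an alternative. The E11.5 calls depend on this rate, which was set after lower rates had been tried.

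A level is a gene's summed UMIs over the summed UMIs of the same cells. Intervals are 95% exact Poisson for levels, Clopper-Pearson for shares and conditional exact for ratios, computed with scipy 1.17.1, and a count of 0 is bounded at 3 counts. They cover counting error alone. No test was run, since cells are not replicates. The calculations were tested on simulated data. Gene positions are from GENCODE, and promoters from RefSeq.

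Named genes are the factors, the genes of the lists (each by its counts with its highest and lowest members) and, for each factor, the 5 genes most alike over clusters. Leading genes and the Myog bin markers were named to describe cells, after their values were seen. Members and lists were chosen with earlier results of these data known. A listed gene is not reported here.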

Additional observations from a re-analysis of the deposited data

How the results depend on the processing

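Of 187 values recomputed under an alternative, 128 stayed within the interval of the reported value (or, for counts of genes, within 1.5 times), 59 moved outside it and 0 reversed. The share of cells with at least 1 factor was 2.61% at E9.5 and 12.3% at E11.5 after thinning, 2.15% and 11.8% with detection from 2 UMIs, and 15.2% at E11.5 without Scrublet calls. The share of these with 2 or more factors was 15.1% at E9.5 from 2 UMIs, and at E11.5 56.6% thinned, 54.4% calculated for 5000 UMIs without a random draw and 74.8% in muscle clusters alone. The log2 ratio between stages was 1.47 for Myf5 as a mean over cells, 2.01 thinned and 2.06 without a filter on cells for Myf6, and 6.22 thinned, 5.09 as a mean over cells, 5.43 without Scrublet calls and 5.28 without a filter for Myog. In E9.5 cells without muscle genes, Myf5 was at 1.86 UPM thinned and 3.11 with differentiation genes alone in the list, and Myf6 at 0.392 and 0.495, over 6123 and 6494 cells. At resolution 0.8 the highest levels were 44.4 (Myf5), 5.13 (Myf6) and 25.7 (Myog) at E9.5 and 121 (Myf6), 1090.1 (Myod1) and 3961 (Myog) at E11.5.

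Counts of genes at least 2-fold apart depend on depth and on the UMI minimum. At E11.5, cells with Myog were set against cells with Myf5 or Myod1 and no Myog. There 350 were higher with thinned cells and 264 lower from 2 UMIs, and 987 and 347 were higher and lower with a minimum of 20 UMIs per gene. With and without Myf6 among Myod1 and Myog cells, the counts were 150 and 208 thinned, 1000 and 849 with 20 UMIs, and 243 lower in the myocyte-like cluster alone. For Myf6 beside Myf5 alone, 8 were higher thinned and 0 without Scrublet calls (no test was run), 36 and 364 were higher and lower from 2 UMIs, and 91 and 553 with 20 UMIs. At E9.5 the counts were 28 and 53 thinned, 72 lower from 2 UMIs, and 494 and 569 with 20 UMIs. With Myog binned per 10000 UMIs, the top bin held Myf5 at 29.7, Myf6 at 40.2 and Myod1 at 1262 UPM, and without Scrublet calls Myod1 was at 983. The last 2 settings, muscle clusters alone and the myocyte-like cluster alone were chosen after seeing the data. The cause was not tested. No paired analysis was possible because each stage has 1 library. With 63 E9.5 cells holding Myog and 9 holding Myod1, depth and cell number limit what E9.5 can show.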
